A study of Mus musculus with 8 samples.

Results

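Expression was compared within 1 gate of mouse bone marrow progenitors, between cells that carried much and cells that carried little of the surface protein CD48. The members are the 4 libraries of the CD34dim CD41+ CD9+ gate, 2 sorted as CD48bright and 2 as CD48dim, taken by their sort labels from 8 libraries of 4 populations. All cells came from wild-type C57BL/6 mice and were sorted as KIT+ and CD16/32-. The other populations were CD34bright CD41+ CD9+ cells and CD34dim CD41- CD9- cells (2 libraries each), which served to estimate the spread and as reference levels. The labels used here do not state age, sex, number of mice or pooling. They also do not say that replicates 1 and 2 were separate mice or sorts. The p-values then cover only the spread between the libraries at hand, and that spread may be technical. Each library was amplified from 5 ng of total RNA and carries no strand information. In such sorted bulk samples, fewer cells of a type and less RNA per cell cannot be told apart.

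CD48 (SLAMF2) is a membrane-anchored protein of the SLAM family that binds CD2 and CD244 on other blood cells. In mouse marrow it is low on haematopoietic stem cells and is gained as cells become lineage-restricted progenitors, and so serves to separate the stages. CD41, the integrin alpha chain of the platelet fibrinogen receptor, and the tetraspanin CD9 mark progenitors with megakaryocyte potential but also other early cells. Megakaryocyte progenitors and stem cells share several surface receptors.

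The CD48dim libraries, replicates 1 and 2, held totals of 12753193 and 7237587 expected counts, and the CD48bright libraries 19594630 and 10318447. Their values are given in that replicate order throughout, as CPM, counts relative to the library total after scaling. The 2 CD48dim libraries stood far apart. Of 13177 genes tested, 6638 (50.4%) differed more than 2-fold between them, against 2893 (21.9%) between the CD48bright libraries. Spearman's correlation across genes was 0.836 within CD48dim and 0.954 within CD48bright, a description only, since genes are not replicates. CD48dim replicate 2 had the smallest share of counts in ribosomal protein genes, 2.3% against 5.6% to 8.58% in the other three libraries, and the highest level of the nuclear RNA Malat1, 38947 CPM against 7103 to 12344. The part of these differences in the results below was not tested.

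The gate was checked first. Cd48 lay at 35.8 and 16.9 CPM in CD48dim and at 179 and 229 CPM in CD48bright. The libraries of the groups did not overlap, as the sort requires, so this is a check of the labels and no finding (log2 fold change 2.95, SE 0.42, edgeR adjusted p = 0.0332). Per transcript length, Cd48 had the highest level of all 51 called genes in both CD48bright libraries, 325 and 502 TPM. Kit was abundant on both sides, at 771 and 1226 CPM in CD48dim against 631 and 743 in CD48bright (edgeR adjusted p = 0.534). Itga2b, which encodes CD41, lay at 155 and 112 CPM against 93.8 and 64.3 (edgeR adjusted p = 0.369), and Cd34 at 197 and 166 against 233 and 397 (edgeR adjusted p = 0.368). In the CD34bright libraries Cd34 lay at 510 and 461 CPM, above all 4 libraries of the CD34dim gate. Cd9 lay at 26.6 and 53.6 CPM against 35.8 and 46.3, with overlapping libraries. Fcgr3, a gene of the CD16/32 pair by which cells were excluded, lay at 39.5 and 3.02 CPM in CD48dim and 87.3 and 22.7 in CD48bright, and Fcgr2b at 13.5 and 21.2 against 39.9 and 23.9. These close relatives can share reads, and neither was called.

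**Figure D1:**
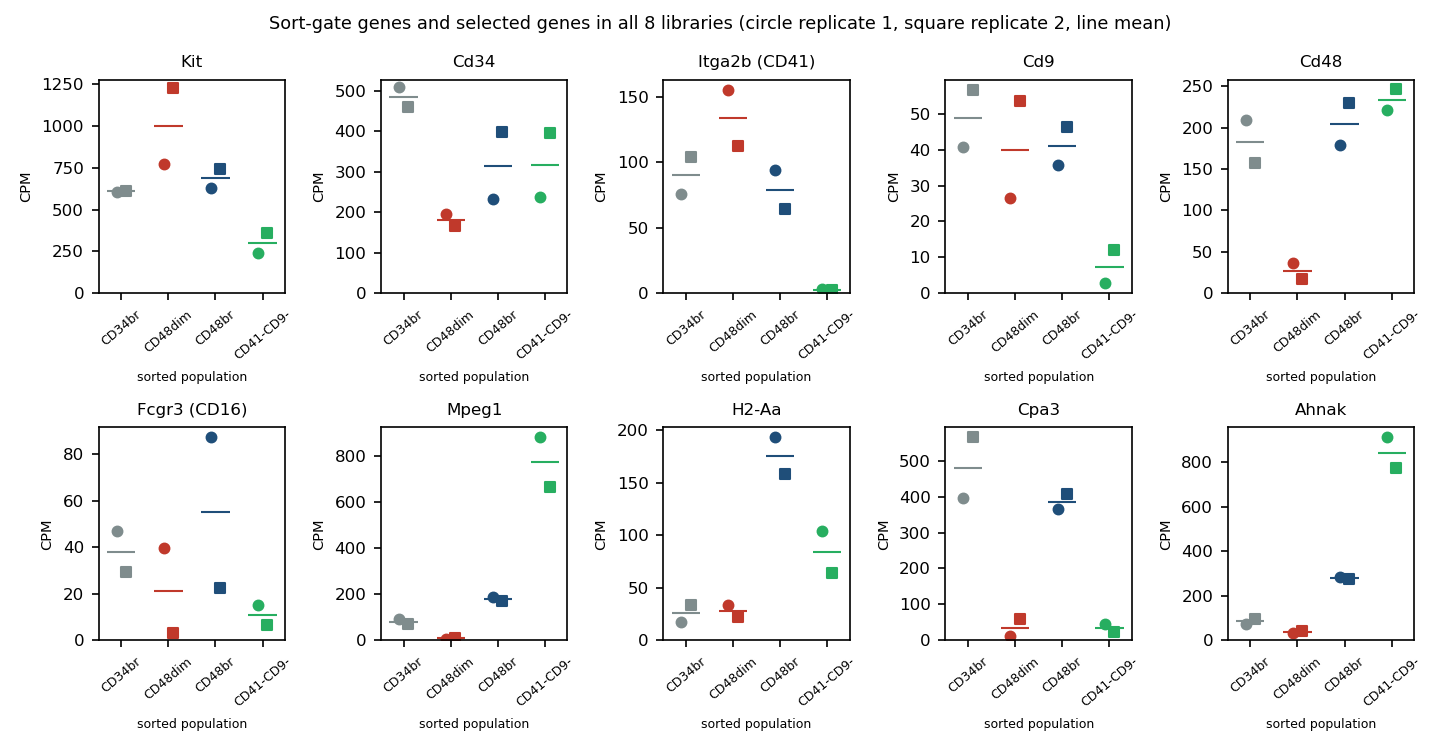
Levels of 6 sort-gate genes and of Mpeg1, H2-Aa, Cpa3 and Ahnak in all 8 libraries, in CPM on a linear axis by sorted population, with a circle for replicate 1, a square for replicate 2 and a line at their mean. Cd48 is parted by its gate, while the points of Cd9 and Fcgr3 overlap between CD48dim and CD48bright.

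Between CD48bright and CD48dim, 51 genes (0.387% of those tested) passed edgeR's quasi-likelihood test at an adjusted p below 0.05. The 36 higher in CD48bright were 0.273% of the genes tested, and the 15 lower were 0.114%. In all 51 the libraries of the groups did not overlap, which held for 39.11% of all genes tested. The higher genes include immune receptors, lysosomal and interferon-inducible proteins, adhesion proteins and a few cell-cycle proteins. The lower genes include receptors and matrix proteins of stem cells and megakaryocytes, and large scaffold proteins. At an unadjusted p below 0.05, 6.85% of the genes tested were higher and 7.72% lower. All 51 kept their direction in every alternative fit, but none was called when the 4 compared libraries were fitted alone (edgeR, 931 genes at an unadjusted p below 0.05). With the replicate number as a block 178 genes were called (1.35% of those tested, 0.774% higher and 0.577% lower), which contain all 51. That fit assumes that equal replicate numbers pair the libraries, which the labels do not state. The higher genes made up 70.59% of the calls, against 46.94% of 588 without the filter on low counts and 43.62% of 791 with DESeq2. Without CD48bright replicate 1 the count fell to 12 and without replicate 2 to 4 (Mpeg1, Cx3cr1, Itgax and Kmo), all of them higher in CD48bright. Leaving out CD48dim replicate 1 gave 3211 calls and leaving out replicate 2 gave 412, both with all 51 among them.

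Set against each CD48dim library on its own, the 36 higher genes lay above both, which follows from the lack of overlap. They were called on these same libraries, so the differences below are no separate support. Their median log2 difference was 3.26 from replicate 1 (range 2.08 to 7.67) and 4.23 from replicate 2 (range 1.94 to 8.80). The 15 lower genes had medians of -3.60 from replicate 1 and -4.24 from replicate 2. Every one of these 15 was higher in CD48dim replicate 2 than in replicate 1, whereas the 36 were mixed, with 19 higher in replicate 1, 11 higher in replicate 2 and 6 at 0 in both. Among the 36, 13 were below 1 CPM in both CD48dim libraries. These genes entered the test through their level elsewhere, so their number is no measure of how often genes differ.

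**Figure D2:**
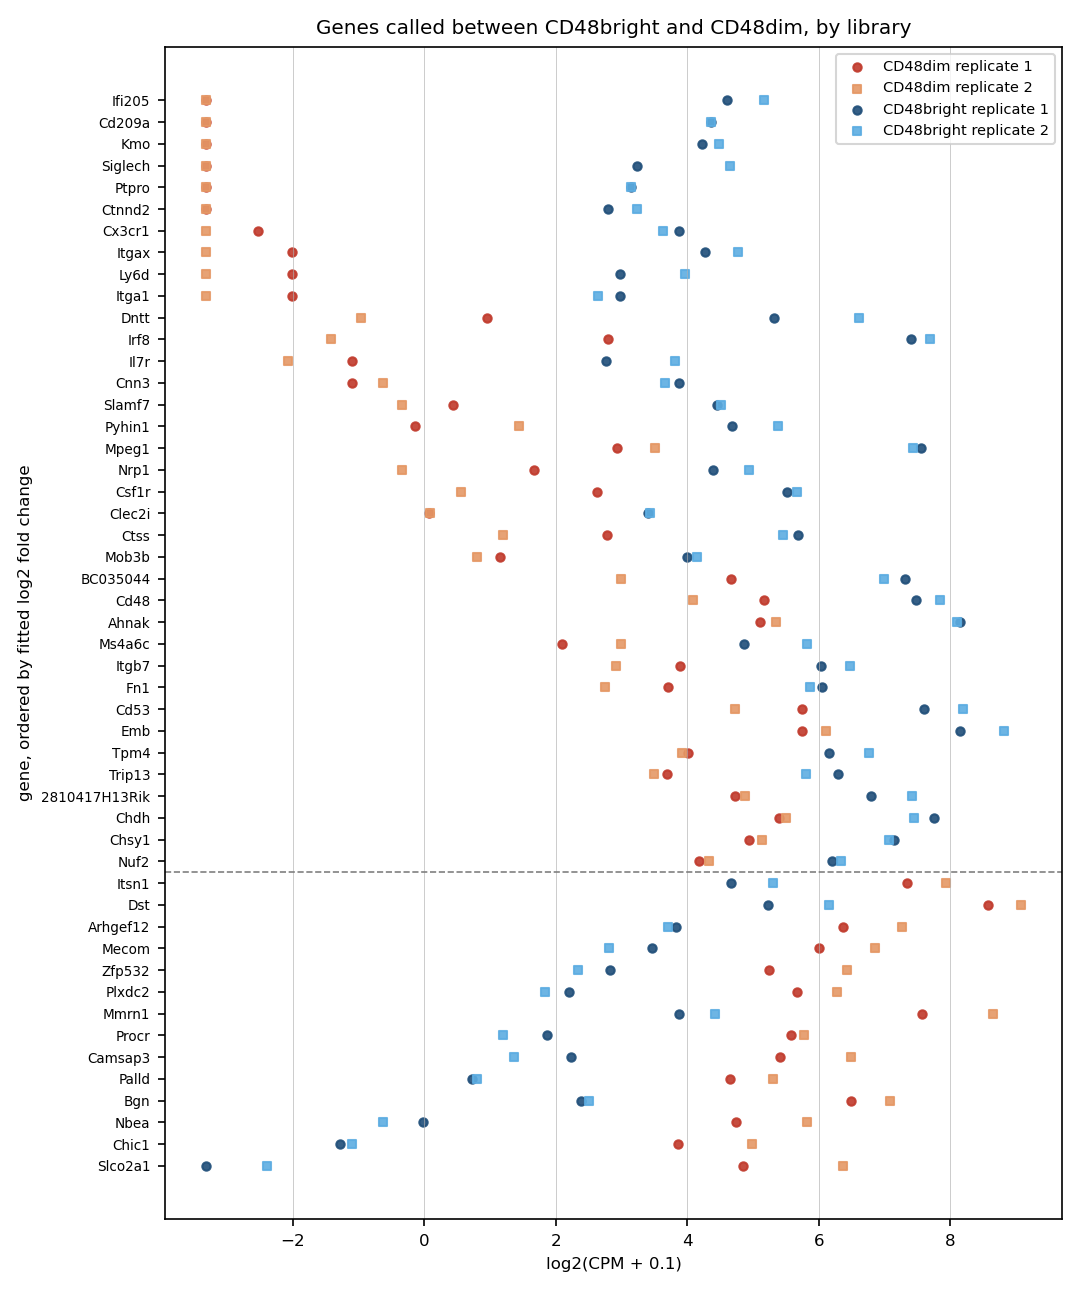
Levels of 50 of the 51 called genes in each of the 4 libraries, as log2 of CPM plus 0.1, 1 row per gene and 1 point per library. The CD48bright points lie to 1 side of both CD48dim points in every row, and in the lower genes CD48dim replicate 2 lies above replicate 1.

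The 4 promoter windows below show the sequence in front of called genes that the account below turns on, 2 higher and 2 lower in CD48bright. They are the 250 bases before the RefSeq start (GRCm38.p6, the assembly of the build mm10), read 5′ to 3′ on the gene's strand, which is the plus strand for all 4. Capitals mark, on either strand, matches to AGATAA for the family of GATA factors, GGAAGT for the ETS family, TGTGGT for RUNX factors and a pair of GAAA spaced by 2 bases for IRF factors. The windows are chr19:12460520-12460769 (Mpeg1), chr3:95526536-95526785 (Ctss), chr6:60944067-60944316 (Mmrn1) and chrX:73483351-73483600 (Bgn).
Mpeg1: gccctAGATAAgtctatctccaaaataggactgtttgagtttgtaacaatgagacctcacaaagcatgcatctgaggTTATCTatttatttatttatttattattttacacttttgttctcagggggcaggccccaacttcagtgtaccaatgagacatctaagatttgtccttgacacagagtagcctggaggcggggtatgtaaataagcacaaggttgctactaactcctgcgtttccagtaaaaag
Ctss: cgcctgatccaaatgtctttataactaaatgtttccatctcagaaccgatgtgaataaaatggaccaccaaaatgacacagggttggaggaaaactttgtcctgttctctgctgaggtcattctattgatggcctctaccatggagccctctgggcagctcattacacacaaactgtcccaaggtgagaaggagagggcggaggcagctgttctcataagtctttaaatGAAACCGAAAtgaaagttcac
Mmrn1: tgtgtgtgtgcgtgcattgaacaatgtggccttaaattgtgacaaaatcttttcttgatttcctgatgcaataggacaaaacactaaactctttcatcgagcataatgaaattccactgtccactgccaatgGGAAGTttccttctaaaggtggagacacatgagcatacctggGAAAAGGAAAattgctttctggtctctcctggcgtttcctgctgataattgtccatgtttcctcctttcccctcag
Bgn: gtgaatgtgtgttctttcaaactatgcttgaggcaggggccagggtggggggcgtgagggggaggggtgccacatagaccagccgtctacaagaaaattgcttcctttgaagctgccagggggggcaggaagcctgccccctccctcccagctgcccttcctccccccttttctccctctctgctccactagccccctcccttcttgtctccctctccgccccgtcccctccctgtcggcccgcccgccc
Mpeg1 holds the GATA letters in 2 places, Ctss the IRF pair, Mmrn1 an ETS core and an IRF pair, and Bgn none of the 4. Over the called genes with a RefSeq window, 33 of the 36 higher genes had 37 windows and 11 of the 15 lower genes had 15. The ETS letters were in 27.03% of the windows of higher genes and 13.33% of those of lower genes, against 23.54% of the 13281 windows of all genes tested. The GATA letters were in 13.51% and 0% of windows, against 6.287% of all. The RUNX letters were in 13.51% and 0%, against 11.23%, and the IRF pair in 5.405% and 13.33%, against 2.696%. These are counts of letters in small sets and were not tested, and a match is not a binding site.

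Several genes higher in CD48bright act in phagocytes and innate immunity. Mpeg1 (chromosome 19, 12460770 to 12465285), which encodes the pore-forming perforin-2 of phagocytes, rose from 7.56 and 11.3 CPM to 189 and 173 CPM. Its log2 fold change was 4.27 (SE 0.39, edgeR adjusted p = 0.00553), with replicates of each side close together. Ctss, which encodes the lysosomal protease cathepsin S that trims the invariant chain of class II molecules, rose from 6.75 and 2.20 CPM to 51.3 and 43.9 CPM (log2 fold change 3.37, edgeR adjusted p = 0.0453). Csf1r, the receptor of macrophage colony-stimulating factor, rose from 6.09 and 1.37 CPM to 45.7 and 50.8 CPM (log2 fold change 3.64, SE 0.59, edgeR adjusted p = 0.0453). Ms4a6c, a tetraspanning membrane protein of myeloid cells, rose from 4.18 and 7.83 CPM to 29.0 and 56.3 CPM. Cx3cr1, the receptor of fractalkine, had 1 count over both CD48dim libraries and 414 over both CD48bright libraries, at 14.6 and 12.3 CPM. That is a ratio of 287 with an exact 95% interval of 51.2 to 11400 for counting error only. Csf1r is also among the macrophage genes, which as a list of 10 tested were otherwise not called and summed to 98.3 and 97.3 CPM in CD48dim against 146 and 107 CPM in CD48bright. Of that list, Adgre1 lay at 1.47 and 0 CPM in CD48dim and 2.96 and 4.39 CPM in CD48bright.

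Some of the higher genes had no count in CD48dim. Kmo, an enzyme of tryptophan breakdown along the kynurenine route, lay at 18.6 and 22.2 CPM in CD48bright, at least 142-fold higher than the limit that 3 counts over both CD48dim libraries set (0.143 CPM). By the same limit Ifi205 was at least 210-fold higher, Cd209a at least 142-fold, Siglech at least 120-fold, Ptpro at least 61.1-fold and Ctnnd2 at least 56.5-fold. Ifi205 is an interferon-inducible gene of the PYHIN family, Cd209a and Siglech are lectins of dendritic cells, Ptpro is a receptor-type tyrosine phosphatase and Ctnnd2 encodes delta-catenin of cell junctions. Ctnnd2 lay at 6.87 and 9.32 CPM in CD48bright, 1.96 and 1.78 CPM in CD34bright and 47.6 and 46.0 CPM in the CD41- CD9- population, and Ptpro at 8.74 and 8.78 CPM in CD48bright. Pyhin1 (named Ifi209 in current annotation), a neighbour of Ifi205 in the same family, rose from 0.808 and 2.61 CPM to 25.5 and 41.6 CPM (log2 fold change 4.36, SE 0.58, edgeR adjusted p = 0.0233). The family has close copies that can share reads, so the split between its members is uncertain.

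Receptors of the SLAM and lectin families followed. Slamf7, which encodes the receptor CD319 of lymphoid and myeloid cells, rose from 1.25 and 0.687 CPM to 21.8 and 22.7 CPM (log2 fold change 4.47, edgeR adjusted p = 0.0453). Of 11 SLAM family genes tested, Slamf7 and Cd48 itself were called. The groups were sorted on CD48, so the call of Cd48 is no finding, and Cd48 also counts in the list median. The list median was 1.06, at -0.03 against CD48dim replicate 1 and 2.36 against replicate 2. Slamf1, which encodes CD150, lay the other way at 15.7 and 39.0 CPM in CD48dim and 12.4 and 4.11 CPM in CD48bright, without a call. BC035044, which neighbours the lectin genes, rose from 25.4 and 7.83 CPM to 159 and 128 CPM, and Clec2i from 0.954 and 0.962 CPM to 10.5 and 10.7 CPM. Clec2i overlaps BC035044, which had 4855 counts against 338, so without strand its level is uncertain. Over 30 tested C-type lectins, Siglecs and paired receptors, Siglech, Cd209a and Clec2i were called higher, and 5 genes with the replicate block (0.774% of all genes tested). Of the 30, 15 lay on each side of 0, with a median of 0.00.

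Adhesion and actin genes formed the next set, and they moved in both directions. Ahnak (chromosome 19, 8989284 to 9076935), which encodes a giant scaffold protein beneath the membrane, rose from 34.4 and 40.8 CPM to 283 and 274 CPM. Its log2 fold change was 2.89 (SE 0.33, edgeR adjusted p = 0.0129), and both replicates of each side lay close. Cnn3, the actin-binding calponin 3, rose from 0.367 and 0.550 CPM to 14.6 and 12.6 CPM (log2 fold change 4.92, SE 0.54, edgeR adjusted p = 0.0126). Tpm4, a tropomyosin of non-muscle cells, rose from 16.1 and 15.1 CPM to 71.5 and 108 CPM (log2 fold change 2.52, SE 0.34, edgeR adjusted p = 0.0261). Against these, 3 genes of cytoskeletal linkers fell. Dst (chromosome 1, 33907888 to 34308662), which encodes dystonin, a linker of filament systems, fell from 382 and 541 CPM to 37.3 and 70.9 CPM (log2 fold change -3.09, SE 0.40, edgeR adjusted p = 0.0226). Palld, the actin-bundling palladin, fell from 25.0 and 39.3 CPM to 1.56 and 1.65 CPM, and Camsap3, which binds microtubule minus ends, from 42.4 and 90.1 CPM to 4.58 and 2.47 CPM. In the list of 34 tested cytoskeleton scaffold genes, which does not hold Dst or Ahnak, 2 were called higher (Cnn3 and Tpm4) and 2 lower (Palld and Camsap3), and the median was -0.20.

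Integrins and other surface proteins of adhesion were higher where they were called. Itgb7, the beta chain of the gut-homing integrin, rose from 14.7 and 7.42 CPM to 65.1 and 88.8 CPM (log2 fold change 2.79, SE 0.45, edgeR adjusted p = 0.0453). Itgax, which encodes CD11c, had 2 counts over both CD48dim libraries and 19.1 and 27.2 CPM in CD48bright, a ratio of 231 with an exact 95% interval of 63.7 to 1910. Itga1 also had 2 counts in CD48dim, against 7.75 and 6.13 CPM in CD48bright, but overlaps Pelo, which had 613 counts against 218, so its level is uncertain. These 3 were the called ones of 21 integrin genes tested, and 11 of the 21 lay below 0 (median -0.07). Emb, which encodes the glycoprotein embigin, rose from 53.4 and 69.3 CPM to 283 and 449 CPM (log2 fold change 2.58, SE 0.38, edgeR adjusted p = 0.0353). Cd53, a tetraspanin of white blood cells, rose from 53.5 and 26.2 CPM to 193 and 291 CPM (log2 fold change 2.60, edgeR adjusted p = 0.0453). Nrp1, the co-receptor of semaphorins and vascular endothelial growth factor, rose from 3.08 and 0.687 CPM to 20.9 and 30.4 CPM (log2 fold change 3.69, edgeR adjusted p = 0.0493).

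Matrix genes had calls in both directions. Fn1, which encodes fibronectin, rose from 13 and 6.60 CPM to 66.5 and 58.5 CPM (log2 fold change 2.66, SE 0.44, edgeR adjusted p = 0.0472). Bgn (chromosome X, 73483601 to 73495936), which encodes the small proteoglycan biglycan, fell from 89.9 and 136 CPM to 5.10 and 5.58 CPM (log2 fold change -4.40, SE 0.53, edgeR adjusted p = 0.0165). Bgn lay at 8.66 and 13.4 CPM in CD34bright and at 0.0787 and 0 CPM in the CD41- CD9- cells, so CD48dim was the highest of the 4 populations. Mmrn1, which encodes multimerin 1 of platelet granules and is also in this list, fell from 190 and 401 CPM to 14.6 and 21.3 CPM (log2 fold change -4.05, SE 0.64, edgeR adjusted p = 0.0453). The list of 35 tested matrix and proteoglycan genes had 12 members with both CD48bright libraries below both CD48dim libraries and 3 above, beside 18.9% and 20.2% of all genes tested. Its median of -0.91 was -1.03 against CD48dim replicate 1 and 0.21 against replicate 2. Chsy1, a synthase of chondroitin sulfate, rose from 30.5 and 35.2 CPM to 142 and 133 CPM (log2 fold change 2.07, SE 0.30, edgeR adjusted p = 0.0353).

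A few called genes of growth and metabolism were also higher. 2810417H13Rik, named Pclaf in current annotation and encoding a factor bound to the replication clamp PCNA, rose from 26.4 and 29.3 CPM to 111 and 172 CPM (log2 fold change 2.34, edgeR adjusted p = 0.0391). Nuf2, a kinetochore protein, rose from 18.1 and 19.9 CPM to 73.5 and 80.5 CPM, and Trip13, an ATPase of the spindle checkpoint, from 12.8 and 11.1 CPM to 78.7 and 55.7 CPM. Chdh, which oxidises choline in mitochondria, rose from 41.9 and 45.1 CPM to 215 and 176 CPM (log2 fold change 2.17, SE 0.32, edgeR adjusted p = 0.0391), and Mob3b, an adaptor of the MOB family, from 2.13 and 1.65 CPM to 15.9 and 17.6 CPM. Chdh and 2810417H13Rik overlap Cacna1d and Trip4, which had 1805 counts against 6950 and 2024 against 4577, so part of their reads may belong there. Of 38 tested genes of DNA replication none was called by edgeR and 14 were higher at an unadjusted p below 0.05 (6.85% of all genes tested). In 26 both CD48bright libraries lay above both CD48dim libraries (20.2% of all). The median was 0.83. With the replicate block Rrm2, a subunit of ribonucleotide reductase, passed at an adjusted p = 0.034, from 58.5 and 35.0 CPM to 183 and 116 CPM, and Pola1, a DNA polymerase subunit, at an adjusted p = 0.049.

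Lymphoid genes and the transcription factor Irf8 were called higher from low levels in CD48dim. Irf8, which directs monocyte and dendritic cell fate, rose from 6.83 and 0.275 CPM to 170 and 207 CPM. It lay at 143 and 141 CPM in CD34bright and was highest in the CD41- CD9- population, at 1104 and 820 CPM. Dntt, the template-free polymerase of V(D)J joining, rose from 1.84 and 0.412 CPM to 39.9 and 98.3 CPM. Il7r rose from 0.367 and 0.137 CPM to 6.71 and 14.0 CPM, and Ly6d from 2 counts in all to 7.75 and 15.4 CPM. In the CD41- CD9- population Dntt lay at 1503 and 907 CPM, Il7r at 200 and 187 CPM and Ly6d at 152 and 76.8 CPM, all above CD48bright. These 3 were the called members of 23 lymphoid and recombination genes tested, whose median was 0.30. With the replicate block 5 were called higher (0.774% of all genes tested). In 39 tested transcription factors of blood formation, Irf8 was called higher and Mecom lower, and the median was -0.09. With the block 2 were called higher and 3 lower (0.774% and 0.577% of all genes tested). Cebpa, which drives granulocyte and monocyte fate, lay at 5.36 and 4.81 CPM against 43.2 and 24.9 CPM, with an edgeR adjusted p of 0.0769 that was 0.0273 with the replicate block. Id2, an inhibitor of E proteins, lay at 2.06 and 3.85 CPM against 21.7 and 22.9 CPM and was called in neither fit.

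Genes of surface proteins and a regulator were among those lower in CD48bright. Procr, the endothelial protein C receptor, fell from 47.7 and 54.4 CPM to 3.54 and 2.19 CPM. Mecom, a zinc finger regulator of stem cells, fell from 63.8 and 116 CPM to 11 and 6.95 CPM. Slco2a1, a prostaglandin transporter, lay at 28.8 and 82.3 CPM in CD48dim and had 1 count over both CD48bright libraries, a ratio of 1430 with an exact 95% interval of 256 to 56600. It lay at 0.206 CPM or less in the other two populations.

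The remaining lower genes encode large signalling and trafficking proteins. Arhgef12, an exchange factor that activates RhoA, fell from 82.6 and 154 CPM to 14.0 and 13 CPM (log2 fold change -3.13, SE 0.43, edgeR adjusted p = 0.0273). Itsn1, the endocytic scaffold intersectin 1, fell from 163 and 243 CPM to 25.2 and 39.6 CPM. Nbea, the BEACH protein neurobeachin, fell from 26.6 and 56.5 CPM to 0.884 and 0.549 CPM (log2 fold change -5.82, SE 0.81, edgeR adjusted p = 0.0273). Chic1, a palmitoylated membrane protein, fell from 14.4 and 31.5 CPM to 0.312 and 0.366 CPM, Zfp532, a zinc finger protein, from 37.7 and 86.4 CPM to 6.97 and 4.94 CPM, and Plxdc2, a plexin-domain membrane protein, from 50.6 and 77.6 CPM to 4.53 and 3.47 CPM. In all 6 genes CD48dim replicate 2 was the higher library. The lower genes are long, with a median length of 4739 bases against 2738 for the higher genes and 2780 for all genes tested, and 9 of the 15 were in the longest of 5 equal bins of genes by length.

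Gene length also parted the libraries of a group. In the shortest of these 5 bins, with a median of 1106 bases, the median log2 ratio of CD48dim replicate 1 to replicate 2 was 1.04, and in the longest, with a median of 5963 bases, it was -0.39. The same ratio ran from 0.27 to -0.21 between the CD48bright libraries. The median log2 fold change of CD48bright against CD48dim ran in the same order, from 0.22 in the shortest to -0.25 in the longest bin. The part of length in the calls was not tested.

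**Figure D3:**
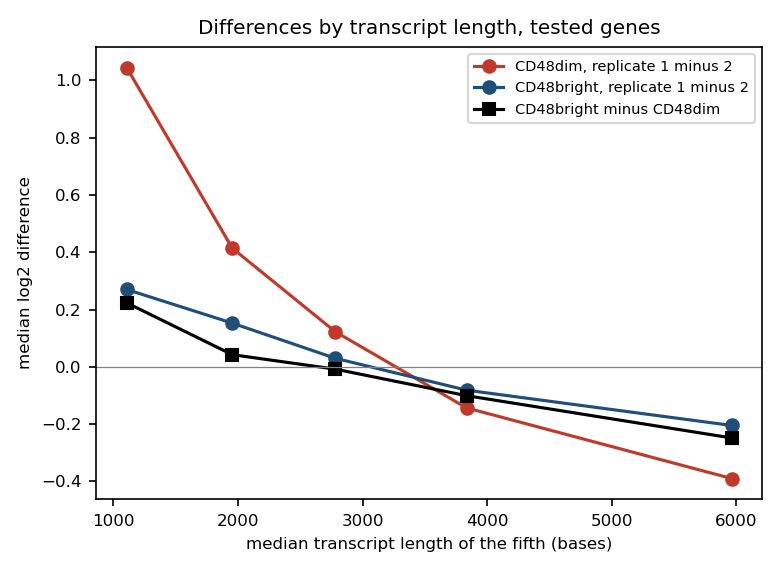
Median log2 difference against the median transcript length, in bases, of 5 equal bins of the genes tested, for CD48bright against CD48dim and for replicate 1 against replicate 2 within each group. The line for the CD48dim pair falls from 1.04 to -0.39, the steepest of the 3 lines.

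Platelet and megakaryocyte genes lay lower in CD48bright. Of 24 tested, 2 were called, among them Mmrn1, 15 had both CD48bright libraries below both CD48dim libraries (18.9% of all genes tested) and none lay above. The median was -1.16, and similar against CD48dim replicate 1 (-1.16) and replicate 2 (-1.01). The summed level was 2123 and 2666 CPM in CD48dim, 1068 and 1123 CPM in CD48bright, 843 and 1132 CPM in CD34bright and 576 and 700 CPM in the CD41- CD9- population. Gp9, a subunit of the von Willebrand factor receptor, lay at 18.3 and 76.5 CPM against 9.83 and 12.1 CPM. The defining platelet genes Pf4 and Ppbp were low everywhere, at 19.5 and 7.15 CPM and at 0.954 and 2.06 CPM in CD48dim. Ptgs1, the cyclooxygenase of platelets, lay at 202 and 165 CPM against 47.7 and 12.9 CPM, and Tbxas1, thromboxane synthase, at 80.9 and 58.5 CPM against 26.9 and 17.8 CPM. Neither was called by edgeR (adjusted p = 0.107 and 0.155), and with the replicate block Ptgs1 passed at an adjusted p = 0.0389.

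Further lists lay lower with few or no calls. Of 15 tested endothelial-type genes Plxdc2 was called, 5 were called lower with the replicate block (0.577% of all genes tested) and 9 did not overlap downward (18.9% of all), with a median of -1.55. Robo4, a guidance receptor of endothelium and stem cells, lay at 41.6 and 47.5 CPM against 1.87 and 5.58 CPM, and Esam, a junction molecule, at 53.7 and 38.1 CPM against 2.24 and 2.38 CPM. Their edgeR adjusted p values of 0.0737 and 0.0878 became 0.0367 and 0.0417 with the replicate block. Of 18 tested stem cell genes 3 were called lower, among them Procr and Mecom, and the median was -2.25. With the block 7 stem cell genes were called lower (0.577% of all genes tested). That list was known to be lower from earlier results of these data.

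HOX and partner genes lay lower with a median of -1.18 over 19 tested, none called by edgeR, 6 lower at an unadjusted p below 0.05 (7.72% of all genes tested) and 12 not overlapping downward (18.9% of all). Hoxa3, a homeobox transcription factor, lay at 7.63 and 45.1 CPM against 4.47 and 2.29 CPM (edgeR adjusted p = 0.194). The summed level of the list was 811 CPM in CD48dim replicate 1 and 1871 CPM in replicate 2, so these libraries differed from one another more than replicate 1 differed from CD48bright (437 and 530 CPM). Meg3, a long noncoding RNA of an imprinted cluster, lay at 22.5 and 82.6 CPM against 0.0520 and 0.549 CPM, with an edgeR adjusted p of 0.136 that was 0.0215 with the replicate block. The 15 imprinted growth genes tested had a median of -1.13 and no call by edgeR, with 4 lower at an unadjusted p below 0.05 (7.72% of all genes tested). Gimap8, a GTPase of lymphoid cells, lay at 29.5 and 47.8 CPM against 4.47 and 6.12 CPM, with an edgeR adjusted p of 0.0878 that was 0.0457 with the replicate block, while 4 of the 8 tested Gimap genes lay above 0.

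Interferon-stimulated genes lay lower, whereas the PYHIN genes Ifi205 and Pyhin1 were called higher. Of 26 tested none was called by edgeR. At an unadjusted p below 0.05, 8 were lower (7.72% of all genes tested) and none higher, and 10 did not overlap downward (18.9% of all). The median of -0.83 was -1.48 against CD48dim replicate 1 and -0.32 against replicate 2. Ifi44 lay at 33.2 and 78.2 CPM in CD48dim and 8.74 and 5.30 CPM in CD48bright, and Oasl2 at 141 and 66.2 CPM against 34.0 and 19.2 CPM. With the replicate block they passed at adjusted p = 0.0373 and 0.0482. Ifit1 lay at 20.8 and 25.2 CPM against 2.60 and 5.58 CPM without a call in either fit.

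Genes of class II antigen presentation lay on the other side. Of 12 tested, Ctss was called, 9 had both CD48bright libraries above both CD48dim libraries (20.2% of all genes tested) and none lay below. The median of 2.12 was 1.64 against CD48dim replicate 1 and 2.60 against replicate 2. H2-Aa, a chain of the class II molecule I-A, lay at 34.1 and 21.9 CPM against 194 and 158 CPM. The log2 fold change of H2-Aa was 2.65 (SE 0.45), and its edgeR adjusted p of 0.0502 became 0.0488 with median-ratio size factors and 0.0285 with the replicate block. Cd74, the invariant chain, lay at 83.3 and 11.8 CPM against 328 and 226 CPM (edgeR adjusted p = 0.228), and Ciita, the master activator of the group, overlapped between the sides at 3.89 and 19 CPM against 11.3 and 13.1 CPM.

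**Figure D4:**
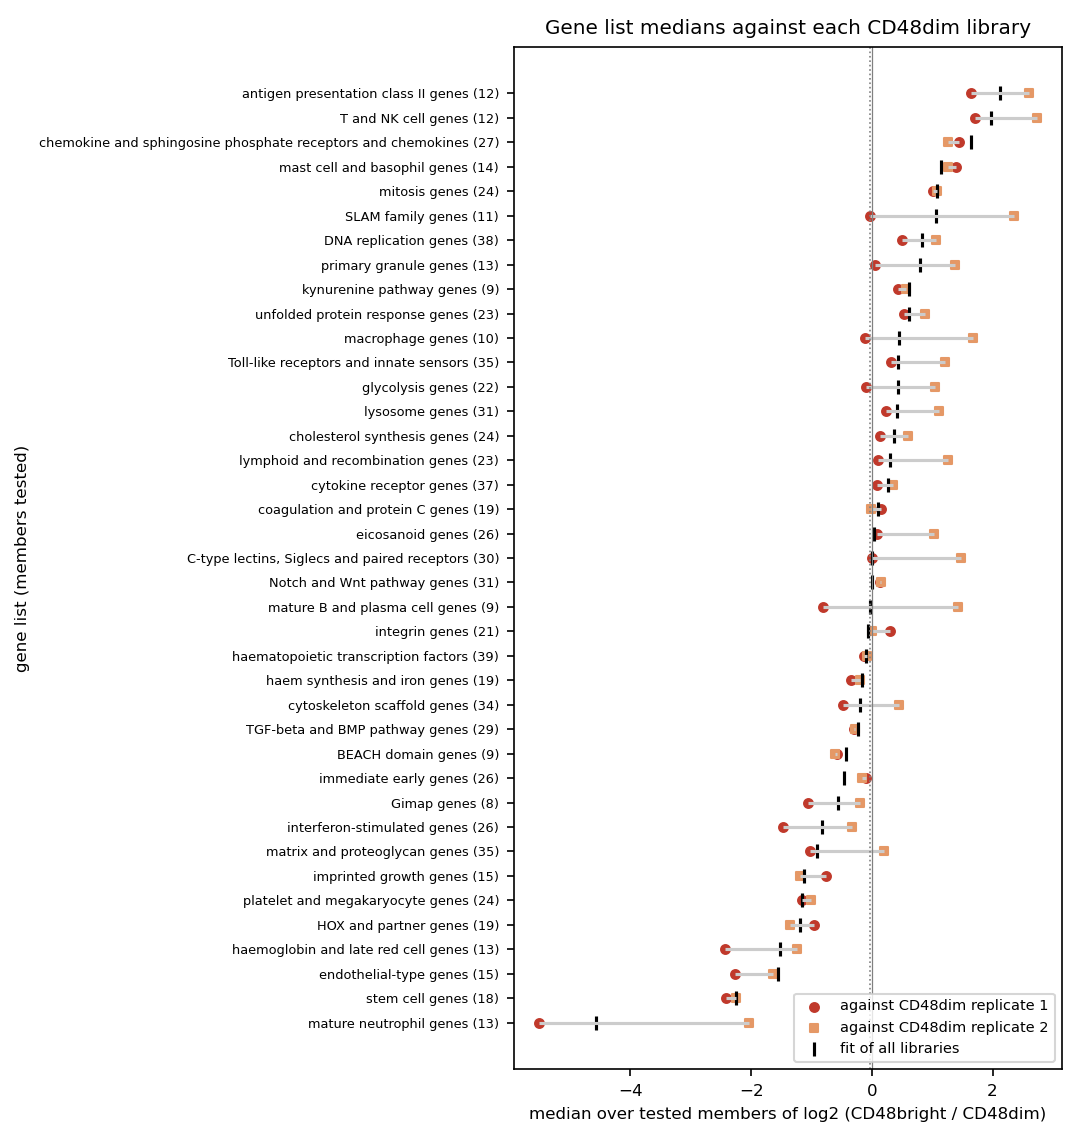
Median log2 difference of CD48bright from CD48dim replicate 1 and from CD48dim replicate 2 for each gene list, 1 row per list, with a tick for the median in the fit of all libraries and a dotted line at the median of all genes tested (-0.03). For the platelet and class II lists both points lie on 1 side of 0, while for the matrix and SLAM family lists they lie on opposite sides.

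Innate sensing and homing genes shared this direction in part. Among 27 tested chemokine and sphingosine phosphate receptors and chemokines, Cx3cr1 was called, 16 did not overlap upward (20.2% of all genes tested) and the median was 1.65. Of 35 Toll-like receptors and innate sensors none was called by edgeR, and the median was 0.44. At an unadjusted p below 0.05, 4 were higher and 2 lower (6.85% and 7.72% of all genes tested). Ly86, the partner of the receptor RP105, lay at 1.47 and 6.32 CPM against 40.1 and 34.9 CPM, and Tlr9, a sensor of unmethylated DNA, at 0.734 and 0 CPM against 8.79 and 12.1 CPM. Both passed with the replicate block (adjusted p = 0.034 and 0.0417, from 0.0642 and 0.0918). Ctsh, a lysosomal protease, did so too, from 0.0691 to 0.0226, at 12.7 and 10.2 CPM against 54.8 and 46.2 CPM. In 31 tested lysosome genes Ctss was called and the median was 0.41.

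Marker genes of other cell types were read in each library. Mature neutrophils lack KIT and carry CD16/32, whereas the sort took KIT+ CD16/32- cells. The purity of the sort was not tested. Mature neutrophil genes summed to 4319 and 659 CPM in CD48dim and to 175 and 128 CPM in CD48bright. Of 13 tested none was called by edgeR, 10 were lower at an unadjusted p below 0.05 (7.72% of all genes tested) and the median was -4.57. S100a8, a subunit of calprotectin, lay at 990 and 190 CPM against 26.2 and 17.6 CPM, and Ltf, lactoferrin, at 344 and 25.6 CPM against 5.72 and 6.58 CPM. CD48dim replicate 1 was thus the highest library of the 4. With the replicate block S100a8 passed at an adjusted p = 0.0475, 1 of 2 genes of the list called lower (0.577% of all genes tested). Haemoglobin and late red cell genes summed to 1352 and 1180 CPM against 896 and 468 CPM, with a median of -1.52. Of these 13 tested none was called by edgeR and 5 were lower at an unadjusted p below 0.05 (7.72% of all genes tested). The part of neutrophil and red cell RNA in the genes lower in CD48bright was not tested.

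Mast cell and basophil genes had a positive median, while their summed level overlapped between the groups, at 1993 and 2901 CPM in CD48dim and 3945 and 2821 CPM in CD48bright. Of 14 tested none was called by edgeR, 7 were higher at an unadjusted p below 0.05 (6.85% of all genes tested), 4 were called higher with the replicate block (0.774% of all) and the median was 1.14. Cpa3, mast cell carboxypeptidase, lay at 12.9 and 58.3 CPM against 365 and 406 CPM (log2 fold change 3.44, SE 0.66, edgeR adjusted p = 0.0769, and 0.0348 with the replicate block). Mcpt8, a basophil protease, lay at 19.1 and 3.98 CPM against 198 and 81.9 CPM, and Fcer1g, the shared gamma chain of Fc receptors, at 40.7 and 63.5 CPM against 129 and 150 CPM. With the block, edgeR's adjusted p was 0.043 and 0.0429, from 0.107 and 0.122. Primary granule genes, which are made in immature granulocytes, summed to 15110 and 3785 CPM in CD48dim and 21140 and 8932 CPM in CD48bright, and the level of each replicate 1 was above its replicate 2. Of 13 tested none was called by edgeR, and 1 in each direction had an unadjusted p below 0.05 (6.85% higher and 7.72% lower of all genes tested).

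T and NK cell genes summed to 280 and 78.0 CPM against 456 and 311 CPM, most of it Nkg7 at 259 and 65.0 CPM against 400.1 and 245 CPM. The defining T cell genes Cd3e and Cd3g lay at 3.59 CPM or less in all 4 libraries. Klrd1, the NK receptor CD94, was at 0 in CD48dim and at 3.48 and 7.50 CPM in CD48bright, at least 38.3-fold higher. Its edgeR adjusted p of 0.0745 was 0.039 with the replicate block. Of the 12 T and NK cell genes tested none was called by edgeR and 1 was higher at an unadjusted p below 0.05 (6.85% of all genes tested). Both CD48bright libraries lay above both CD48dim libraries in 8 (20.2% of all genes tested) and below in 1 (18.9% of all). The list median was 1.98, at 1.70 against CD48dim replicate 1 and 2.74 against replicate 2. Of the 9 mature B and plasma cell genes, Jchain, the joining chain of secreted antibodies, stood apart at 0.220 and 0 CPM against 49.7 and 37.7 CPM. Its edgeR adjusted p of 0.0769 was 0.0429 with the replicate block. The B cell gene Ms4a1 lay at 1.37 CPM or less in all 4 libraries. The part of these cell types in the genes higher in CD48bright was not tested.

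Other pathways had few or no calls by edgeR. At an unadjusted p below 0.05, 6.85% of all genes tested were higher and 7.72% lower. Of 22 glycolysis genes none was called by edgeR, 3 were higher at an unadjusted p below 0.05, and the median of 0.43 was -0.09 against CD48dim replicate 1 and 1.05 against replicate 2. For 24 cholesterol synthesis genes the median was 0.37, with none below an unadjusted p of 0.05. The unfolded protein response genes had a median of 0.62, with 8 of 23 higher at an unadjusted p below 0.05 and none called by edgeR. The TGF-beta and BMP pathway genes (29 tested, median -0.22), haem synthesis and iron genes (19 tested, median -0.16) and immediate early genes (26 tested, median -0.46) had no call either, with 2 and 5, 1 and 3, and 1 and 3 members higher and lower at an unadjusted p below 0.05. In the eicosanoid genes (26 tested) Slco2a1 was the called one, in the kynurenine genes (9 tested) Kmo, in the BEACH domain genes (9 tested) Nbea and in the coagulation genes (19 tested) Procr. F13a1, a subunit of coagulation factor XIII, lay at 28.4 and 30.8 CPM against 132 and 89.8 CPM, with an edgeR adjusted p of 0.0769 that was 0.0227 with the replicate block. Of 37 cytokine receptor genes 2 were called higher (Csf1r and Il7r) and 1 lower (median 0.26), and of 31 Notch and Wnt pathway genes Ctnnd2 was (median 0.00). Mitosis genes had a median of 1.08 over 24 tested (1.02 against CD48dim replicate 1 and 1.08 against replicate 2). None was called by edgeR, but 17 were higher at an unadjusted p below 0.05 (6.85% of all genes tested) and none lower. In 18 both CD48bright libraries lay above both CD48dim libraries (20.2% of all), and 5 were called higher with the block (0.774% of all).

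The gap between the CD48dim libraries was read gene by gene, as a description with 1 library a side. Replicate 1 was more than 4-fold higher for 2108 genes (16% of those tested) and replicate 2 for 804 (6.1%), while 839 genes (6.37%) differed that much between the CD48bright libraries in either direction. The genes named next had at least 50 CPM in the higher CD48dim library and at least 8 CPM in both CD48bright libraries. Genes lower than that in CD48bright were left out, so which CD48dim library CD48bright lies near is in part set by this choice. Among well-expressed genes, replicate 1 was far higher for Tpi1, a glycolytic enzyme (173 against 7.01 CPM), Ndufa4, a protein of the respiratory chain (104 against 4.81 CPM), Nme1, a nucleoside diphosphate kinase (99.4 against 4.67 CPM), Ext2, a synthase of heparan sulfate (339 against 18.6 CPM), and Nfam1 (125 against 6.46 CPM). For Tpi1 the CD48bright libraries lay at 180 and 118 CPM, near CD48dim replicate 1. Replicate 2 was far higher for Slc7a1, the transporter of cationic amino acids (42.0 against 861 CPM), Evi2b (53.8 against 1092 CPM), Atp6v0c, a proton pump subunit (2.42 against 62.2 CPM) and Gna14, a G protein alpha subunit (3.01 against 62.4 CPM). For Slc7a1 and Evi2b the CD48bright libraries lay at 70.5 and 84.6 CPM and at 100.7 and 135 CPM, again near CD48dim replicate 1. For Atp6v0c they lay at 104 and 53.6 CPM, nearer to CD48dim replicate 2. Of the 20 genes at these extremes, Eif3j1, Eif3j2, Rps27rt, Amd2, Gm18853, H2-Q9 and Dpm1-adnp have near-identical copies or shared exons that can trade reads, and their values are uncertain. None of the 20 was called between CD48bright and CD48dim.

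**Figure D5:**
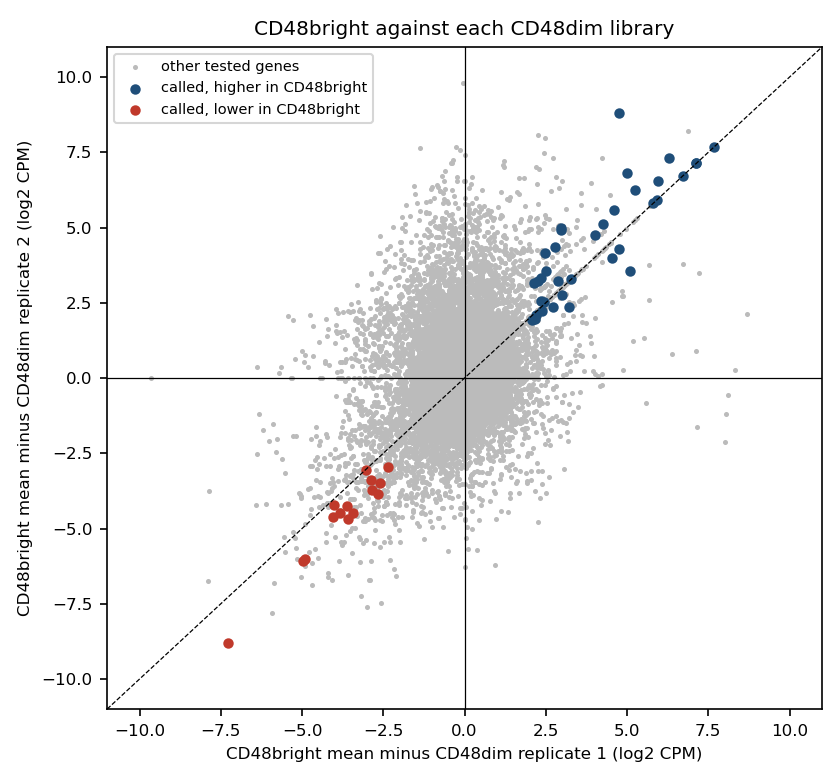
Log2 difference of CD48bright from CD48dim replicate 1 (x axis) and from CD48dim replicate 2 (y axis), 1 point per gene tested, with called genes coloured. The called genes lie in the corners where both differences share a sign, and uncalled genes spread widely along each axis.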

How the data were processed

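RNA was sequenced from 8 libraries of 4 sorted populations, of which 4 are compared here. Libraries were grouped by sort gate, since the cluster numbers of titles and deposited tables disagree. The authors deposited expected counts and TPM per gene, with transcript lengths, in the layout of RSEM per the file headers. The submitters' processing notes name the aligner STAR 2.7.2a, the quantifier RSEM 1.3.2, the build mm10 and edgeR 3.30.3. The filtering of reads is not given in the sources used.

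Expected counts were rounded (at most 2.2% of a library's genes were not whole). Of 24411 genes, 18488 had a count and 13177 passed filterByExpr by population. Libraries were scaled by TMM. Differences were tested with edgeR 4.0.16 (glmQLFit and glmQLFTest, R 4.3.3) in 1 model of all 8 libraries, with 4 residual and 5.46 prior degrees of freedom and a biological coefficient of variation of 49.8%. Two-sided p-values were adjusted by Benjamini-Hochberg over all genes tested and called below 0.05. A standard error is the fold change divided by the square root of F. Single-library log2 differences used a prior count of 2. The fit was run on simulated counts with a smaller spread than these libraries have. Apart from the genes changed on purpose, the simulated populations did not differ. That run therefore does not measure the error of the fit at the spread seen here. TPM values served only to compare levels between genes. Intervals cover counting error only, and a floor is 3 counts.

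Alternatives were RLE size factors, no filter, DESeq2 1.42.0, the 4 libraries alone, the replicate block and leaving out each library. Replicate 1 deviations from the population means correlated weakly between all 6 pairs of populations (0.112 to 0.222). In every population replicate 1 also had more counts, a larger share in ribosomal protein genes and less Malat1 than replicate 2. What the correlations reflect was not tested, and the labels do not state that equal numbers share a mouse, sort or day. The pairing is thus an assumption of the replicate block, and the main fit does not use it. Named were the sort-gate genes, every called gene, called members and the 3 smallest p-values per list, and the 10 genes each way at the extremes between the CD48dim libraries. Not all genes that the rule names are reported. Members, lists and rules were chosen with earlier results of these data known. Lists are described by counts and medians, without a test. Genes were placed on GRCm38.p6.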

Additional observations from a re-analysis of the deposited data

How the results depend on the processing

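Against 51 genes called, the count was 52 with RLE size factors, 588 without the filter on low counts, 791 with DESeq2, 178 with the replicate block and 0 with the 4 libraries fitted alone (edgeR, 931 genes at an unadjusted p below 0.05), and ranged from 4 to 3211 when single libraries were left out. Where a fit leaves 1 library on a side, that library is assumed to vary like the other populations. The share of calls that was higher in CD48bright was 70.59% in the fit reported, 46.94% without the filter, 43.62% with DESeq2 and 57.3% with the block. All 51 genes kept their sign in each of these fits, and all were called with RLE size factors, without the filter, with DESeq2, with the block and without either CD48dim library. The cause of these shifts was not tested.

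Leaving out single libraries, the fold change of Cd9 ranged from -0.37 (without CD48dim replicate 1) to 0.63 and was -0.15 without CD48bright replicate 2, and that of Lss from -1.48 to 0.22 (without CD48dim replicate 2). Neither gene was called. List medians that turned sign and moved by more than the spread between replicates were those of C-type lectins, Siglecs and paired receptors (0.030 to 1.51), matrix and proteoglycan genes (-1.07 to 0.32), cytoskeleton scaffold genes (-0.42 to 0.49), mature B and plasma cell genes (-0.52 to 1.82), integrins (-0.050 to 0.33) and macrophage genes (-1.77 to 3.56). The first 4 were at their highest without CD48dim replicate 1, integrins without CD48dim replicate 2, and macrophage genes at their lowest without CD48bright replicate 1. With RLE size factors, no filter, DESeq2 and the 4 libraries alone all 39 list medians moved by less than that spread, and with the block 35 did. Without CD48dim replicate 1 only 17 did, and without CD48dim replicate 2 28 did. The shallowest library, CD48dim replicate 2, limits the detection of low genes.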

Other observations

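With the replicate number as a block, 127 further genes were called. Among those with the smallest adjusted p, picked after their values were seen, were Ppp1r9a, Gabbr1, Nwd1 and Hlf. Ppp1r9a, which encodes the actin-binding neurabin 1, lay at 171 and 333 CPM in CD48dim and 29.0 and 59.8 CPM in CD48bright (edgeR adjusted p = 0.0775, and 0.00975 with the block). Gabbr1, a subunit of the metabotropic GABA receptor, lay at 81.8 and 206 CPM against 16.8 and 42.2 CPM (0.208, then 0.0107). Nwd1 lay at 271 and 589 CPM against 88.0 and 107 CPM (0.0918, then 0.017), and Hlf, a transcription factor of stem cells, at 602 and 1032 CPM against 132 and 175 CPM (0.129, then 0.0183). In these 4 lower genes replicate 2 lay above replicate 1 in both groups.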
